A study of Mus musculus with 2 samples.

Results

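The Col1a1-high primary cells were a small set of costal cartilage cells with abundant type I collagen mRNA, and they carried the transcripts of tendon and of the fibrous sheath of cartilage. They were chosen by a single value, a Col1a1 level of at least 3000 CPM, the scaled count at which Col1a1 takes 0.3% of a cell's unique molecular identifiers (UMIs, the tags by which captured transcripts are counted). By this rule 215 of 11746 primary cells were members, 1.83% (exact 95% interval 1.60% to 2.09%), and the other 11531 primary cells served for comparison. Both libraries of the series together held 17084 cells with 500 genes and 1000 UMIs or more and no more than 10% of UMIs from mitochondria.

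The series compared costal-cartilage-derived stem cells (CDSCs) taken directly from tissue with CDSCs after culture, by single-cell RNA sequencing of 1 library each. The primary cells came from type II collagenase digestion of costal cartilage of neonatal C57BL/6J mice, less than a week old, that were either CD45.1 or ZsGreen animals, and were sorted as CD45- CD51+ cells. The cultured cells were CDSCs of the same kind at passages 2 to 3. The number of animals behind each library was not given in the sources used here, and the labels name bone marrow as the tissue while the methods describe rib cartilage. In the primary library, the cartilage marker Col2a1 was at 10000 CPM or more in 11379 of the 11531 other cells, and Ptprc, the gene of CD45, had 0 counts in the members, where 3 counts would be 1.98 CPM. Itgav, the gene of CD51, was at 138 CPM in the members and 91.9 CPM in the other cells. Every comparison below is within or between single libraries, so no test was performed, and all intervals are exact 95% intervals that cover counting error only.

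Rib cartilage is wrapped in the perichondrium, a fibrous sheath of Col1a1-expressing cells from which cartilage cells can arise, and muscles, tendons and ligaments attach to it. Type I and type III collagen make up the fibrils of tendon and sheath, while cartilage is built on type II collagen with type IX and XI. Tenocytes are marked by the transcription factors Scx and Mkx, by the membrane glycoprotein tenomodulin (Tnmd) and by the matrix protein thrombospondin 4 (Thbs4), and periostin (Postn) is known from perichondrium, periosteum and ligament.

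The 6 genes taken as markers of these cells, of which only Col1a1 entered the rule, were Col1a1 (ENSMUSG00000001506, chromosome 11, 94936224 to 94953042 in GRCm38), Postn (chromosome 3, 54361109 to 54391037), Col3a1 (chromosome 1, 45311538 to 45349706), Tnmd (chromosome X, 133850980 to 133865577), Thbs4 (chromosome 13, 92751590 to 92794818) and Igf1 (chromosome 10, 87858265 to 87937042). The 150 bases before the start of 3 of them, whose transcripts were high together in the members, are shown as the RefSeq table for GRCm38.p6 gives them, 5′ to 3′ on the strand of the gene. Capitals mark matches to TATAAA or CANNTG on either strand, and no matches overlapped.
Tnmd, chrX:133850858-133851007, plus strand: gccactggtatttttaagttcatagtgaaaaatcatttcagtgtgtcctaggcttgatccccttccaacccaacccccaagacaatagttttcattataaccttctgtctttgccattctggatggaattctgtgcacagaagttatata
Thbs4, chr13:92794819-92794968, minus strand: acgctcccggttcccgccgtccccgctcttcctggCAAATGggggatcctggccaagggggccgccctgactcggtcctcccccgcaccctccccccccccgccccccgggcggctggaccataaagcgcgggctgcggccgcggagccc
Postn, chr3:54360957-54361106, plus strand: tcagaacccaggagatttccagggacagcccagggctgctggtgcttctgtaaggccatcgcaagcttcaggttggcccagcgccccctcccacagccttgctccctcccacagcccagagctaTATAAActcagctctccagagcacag
Of 32851 promoter windows of this length in the table, 7.57% held TATAAA and 47.7% held CANNTG, the letters that basic helix-loop-helix factors such as Scx bind. In the window of Postn 1 TATAAA began 26 bases before the start, and in that of Thbs4 there was 1 CANNTG. The Tnmd window held neither set of letters. The table gives Postn a second start, whose window at chr3:54359117-54359266 also held neither.

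Col1a1 was not spread evenly over the primary cells. It had 0 UMIs in 10741 cells. The cells with at least 1 UMI formed a large group near 100 CPM and a broad, lower rise around 10000 CPM. Cells lay at all levels between them, with no gap at the threshold. The 651 cells with Col1a1 UMIs but under 300 CPM had medians of 82.4 CPM and 12850 UMIs, about the level of 1 Col1a1 UMI. The members held 17777 of the 20450 Col1a1 counts of the library, 86.9%, and a member had between 7 and 420 Col1a1 UMIs with a median of 66. At the threshold the 5 members nearest to it were at 3037 to 3212 CPM and the 5 cells just outside were at 2823 to 2986 CPM. Of the 5 just inside, 4 had Postn UMIs and 2 had Tnmd UMIs, and of the 5 just outside, 5 had Postn UMIs and 3 had Tnmd UMIs. Col2a1 was at 799 to 12515 CPM in the former, and in 4 of the latter it was at 30202 to 56225 CPM.

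**Figure D1:**
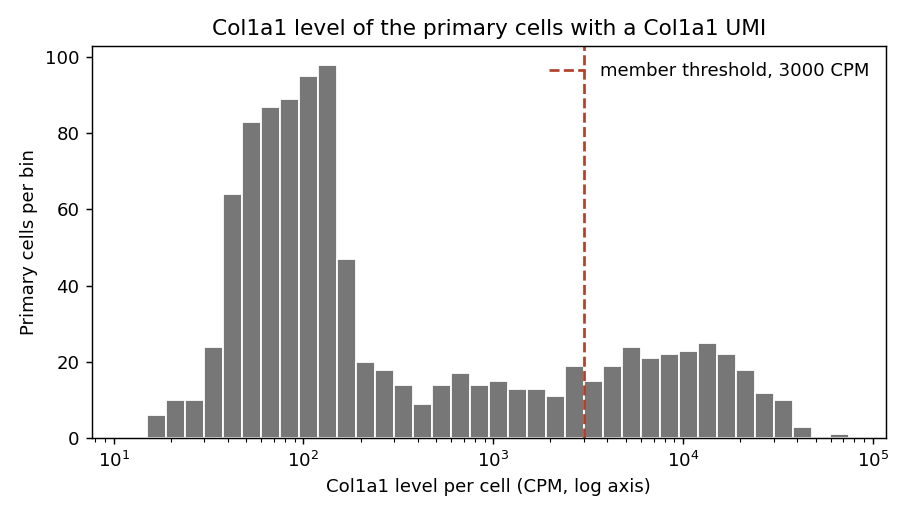
Number of primary cells (y axis) by Col1a1 level (x axis, CPM, log scale) for the 1005 kept primary cells with at least 1 Col1a1 UMI, with the threshold of 3000 CPM as a dashed line. The 215 members lie to the right of the line, and 790 cells lie to the left of it.

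The members were shallower than the other cells, with a median of 5445 UMIs (1346 to 32878) and 2350 genes against 10096 UMIs and 2948 genes. The mitochondrial share was alike, with medians of 1.98% and 1.84%. With every cell reduced at random to 3000 UMIs, which kept 195 members and 11335 other cells, the order of genes per cell was the other way round, with medians of 1555 and 1356. No member carried one of the 32 barcodes that occurred in both libraries.

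Cartilage RNA differed widely among the members. Col2a1 was at 10000 CPM or more in 41 members (10360 to 59231 CPM, median 26586 CPM) and below it in 174 members (0 to 9080 CPM, median 1413 CPM), 64 of which were under 1000 CPM. The 41 members had a median of 12446 UMIs, the 174 a median of 5139 UMIs. Their Scrublet doublet scores, which are high for cells that resemble the sum of unlike cells, had a median of 0.302 against 0.0402 in the 174 and 0.122 in the other primary cells. Leaving out the 1132 primary cells of highest score removed 28 members, all among the 41. Droplets with a pair of cells and single cells that express both programmes cannot be told apart here, and because the 41 held 37.0% of the member UMIs, the values that moved most are also given for the 174 alone.

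Markers of 5 other cell classes were at or near 0 in the members. The 11 endothelial markers summed to 10.6 CPM in members and 18.6 CPM in other cells, with Tie1, Esam and Plvap at 0. The 8 haematopoietic markers summed to 15.8 and 10.8 CPM, with Ptprc, Laptm5 and Csf1r at 0 in members. The mast cell, erythroid and Schwann cell lists summed to 1.98, 5.94 and 4.62 CPM in members. None of the markers in these 5 lists reached 10 CPM in either group. At least 3 UMIs of a list were found in 0 members for the endothelial, haematopoietic, mast cell and Schwann lists and in 1 member for the erythroid list. Of the skeletal muscle list, 18 members had at least 3 UMIs, mostly of Tnnt3, a troponin that was at 87.2 CPM in members and 293 CPM in the other cells, while Myod1, Myog and Pax7 were at 0 in members. Tnni2 of the same list was at least 4-fold higher in members, at 20.5 and 3.16 CPM, but in few cells. With every cell reduced to 3000 UMIs, Tnni2 was found in 3 of 195 members and 0.741% of the other cells. Of the 3 adipocyte genes compared, Lpl was at least 4-fold higher, at 42.3 and 0.936 CPM, while Pparg and Fabp4 were at least 4-fold lower.

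The 6 marker genes were found in most members. Over the 215 cells Col1a1, the gene of the main type I collagen chain, ranged from 3037 to 62987 CPM with a median of 9957 CPM, as the rule required. Postn ranged from 0 to 23896 CPM with a median of 6539 CPM, and Col3a1, the type III collagen gene, from 0 to 16655 CPM with a median of 4769 CPM. Both were found in nearly every member, Postn in 213 and Col3a1 in 214. Tnmd ranged from 0 to 12189 CPM with a median of 1421 CPM and had UMIs in 189 members. Thbs4 ranged from 0 to 6233 CPM with a median of 847 CPM, in 179 members. Igf1, a secreted growth factor, ranged from 0 to 3845 CPM with a median of 388 CPM, in 173 members. In the other primary cells the median of each of the 6 genes was 0, although 31.6% of them had Col3a1 UMIs, and their highest cells, at 3713 CPM of Tnmd and 5638 CPM of Thbs4, lay inside the range of the members.

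In summed counts, Postn was at 6622 CPM in members and 18.1 CPM in the other primary cells, a log2 ratio of 8.51 (8.45 to 8.58). For Thbs4 the levels were 913 and 3.30 CPM and the log2 ratio was 8.11 (7.96 to 8.27). For Igf1 they were 573 and 2.18 CPM, with a log2 ratio of 8.04 (7.84 to 8.23). Tnmd was at 1657 and 10.2 CPM, a log2 ratio of 7.34 (7.25 to 7.44), and Col3a1 at 4713 and 60.9 CPM, a log2 ratio of 6.27 (6.23 to 6.32). In the 41 members with high Col2a1 the levels were lower, 2776 CPM for Postn, 597 CPM for Tnmd and 332 CPM for Thbs4, than in the 174 others, where they were 8878, 2279 and 1253 CPM. Both sets of members lay above the other primary cells for all 6 genes.

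**Figure D2:**
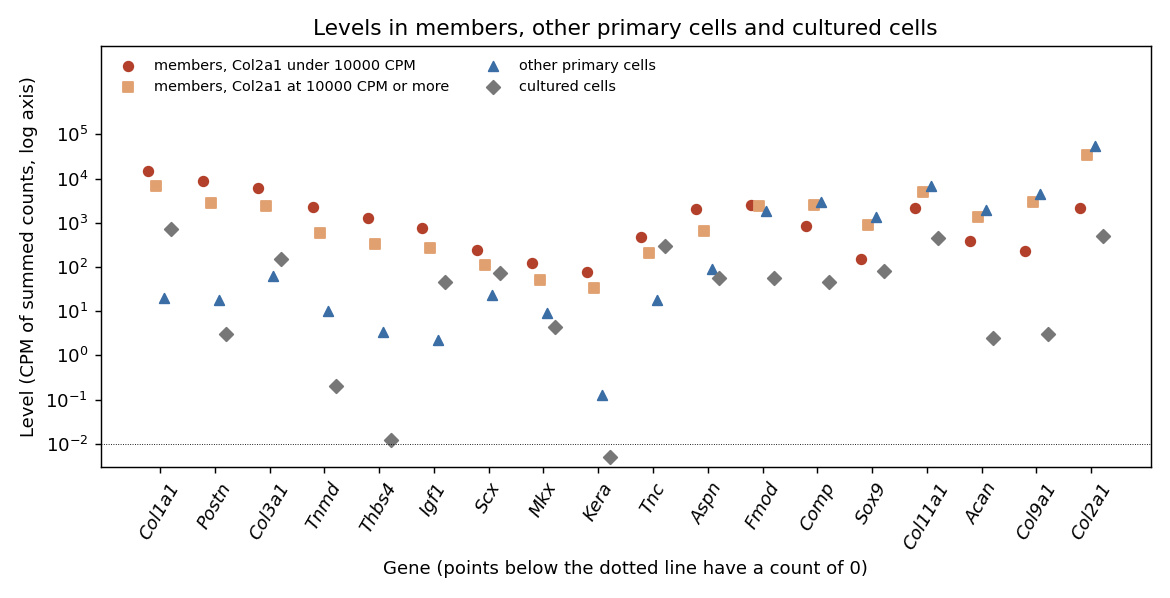
Level of 18 genes (y axis, CPM of summed counts, log scale) in the 174 members with low Col2a1 (circles), the 41 members with high Col2a1 (squares), the 11531 other primary cells (triangles) and the 5338 cultured cells (diamonds). The tendon and sheath genes on the left are highest in the members, the 41 members lie between the others for most genes, and Col2a1 on the right runs from 2197 CPM in the 174 members to 53707 CPM in the other primary cells.

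Detection at equal depth gave the same order. After thinning to 3000 UMIs a Tnmd UMI was found in 161 of 195 members, 82.6% (76.5% to 87.6%), against 2.30% (2.03% to 2.60%) of 11335 other cells. Most of the other cells were high in the cartilage gene Col2a1, and the source of their Tnmd UMIs was not tested. Postn was detected in 99.0% of members and 2.46% of other cells, Thbs4 in 75.4% and 0.538%, and Igf1 in 65.6% and 0.406%. Without thinning, 87.9% of members and 5.87% of other cells had a Tnmd UMI, at median depths of 5445 and 10096 UMIs. Of the 195 thinned members, 93 had UMIs of all 5 markers other than Col1a1, 70 had 4 of them and 0 had none. Among the 11335 other cells, 4 had all 5 and 9392 had none. Each of the 5 genes was found in most members, so much of their overlap within the members follows from these shares. Every thinned member with Tnmd also had Postn, but 193 of the 195 had Postn, so this overlap was nearly fixed in advance. Of the 195, 133 had both Tnmd and Thbs4, 28 Tnmd without Thbs4 and 14 Thbs4 without Tnmd. The tendon transcription factors were sparser, with Scx in 40.5% of thinned members and Mkx in 41 of 195.

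Over all genes with at least 10 CPM in either group, 553 of 8787 were at least 4-fold higher in members than in the other primary cells (6.29%). A 4-fold lower level was found for 73 (0.831%). The median log2 ratio over these genes was 0.28. Among the higher genes 197 were at least 16-fold and 47 at least 64-fold higher, and 1 of the lower genes was at least 16-fold lower. For 426 of the higher and 5 of the lower genes the whole interval lay beyond 4-fold. Scaling by the trimmed mean of log ratios (TMM) shifted all ratios by 0.35 and gave 406 higher and 161 lower genes. Without the 41 members of high Col2a1, 9045 genes were compared, of which 773 were higher (8.55%) and 298 lower. The same cells and the same contrast chose the members, so these counts describe the set and test nothing.

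Among genes with at least 100 CPM in 1 of the groups, Postn, Thbs4 and Igf1 had the highest log2 ratios, and genes of the next ranks are described here. Igfbp5 and Igfbp6, which bind insulin-like growth factors, were at 572 and 265 CPM in members, with log2 ratios of 7.81 and 6.90. Adamtsl1, a secreted relative of the ADAMTS proteases without their catalytic part, had a log2 ratio of 7.81 at 185 CPM. Abi3bp, a matrix protein that binds the SH3 domain of ABI3, was at 946 CPM with a log2 ratio of 7.57, and Egfl6, a secreted protein with EGF repeats, at 191 CPM with 7.53. Without thinning, Abi3bp was found in 82.8% of members and 2.98% of the other cells.

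Lgals1, the gene of the sugar-binding protein galectin-1, was at 1352 CPM in members against 7.90 CPM in the other cells, a log2 ratio of 7.42, and was found in 97.7% of members. Itgbl1, a secreted protein with integrin-beta-like repeats, was at 897 CPM with a log2 ratio of 7.33. Col14a1, a collagen on the surface of type I fibrils, was at 983 CPM with 6.62. Further genes of this rank were the membrane proteins Il1rapl2 (6.73) and Tmem119 (6.61), the R-spondin receptor Lgr5 (6.35 at 104 CPM, in 26.5% of members), Arhgap28 (6.31), the membrane skeleton protein Epb41l3 (6.31), the secreted Olfml2b (6.28) and the RNA-binding protein Rbms3 (6.09), each with its log2 ratio in parentheses.

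Of the 8 tendon and ligament genes, 7 were at least 4-fold higher in members, with a median log2 ratio of 5.47 beside 0.28 over all genes compared. Keratocan (Kera), a proteoglycan of tendon and cornea, had the highest ratio of the list, with 94 counts or 62.1 CPM in members against 17 counts or 0.125 CPM, a log2 ratio of 8.95 (8.20 to 9.79). Scx was at 191 and 23.0 CPM (3.06, 2.88 to 3.23), Mkx at 95.7 and 8.97 CPM (3.42), and tenascin C (Tnc) at 370 and 17.9 CPM (4.37). The exception was fibromodulin (Fmod), a collagen-binding proteoglycan of both tendon and cartilage, at 2476 and 1799 CPM with a log2 ratio of 0.46. In the 174 members with low Col2a1 the list again had 7 of 8 genes higher, with a median of 5.88.

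Of the 10 perichondrium and periosteum genes, 6 passed 4-fold upward and 1 downward, with a median of 2.62. Asporin (Aspn), a small proteoglycan, was at 1517 and 90.4 CPM (4.07), and cathepsin K (Ctsk), a collagen-degrading protease, at 736 and 27.1 CPM (4.76). The surface protein Thy1 was at 20.5 and 0.391 CPM (5.71), while Gli1, a hedgehog target, was at only 13.9 and 3.88 CPM (1.84). Ly6a, the gene of Sca-1, went the other way with 11.2 and 46.3 CPM (-2.04), as did Nt5e with 69.3 and 117 CPM (-0.76). This list holds Postn and the tendon list Tnmd and Thbs4, which were among the genes that named the set, so these counts are not separate evidence for the name.

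Of the 15 mesenchymal fibroblast genes, 11 were compared and 5 were at least 4-fold higher, with a median of 1.54. Col1a2 and the marker Col3a1 were among these 5, so this count is not separate evidence for the name either. Col1a2, the partner chain of Col1a1, was at 15050.3 and 530 CPM (4.83). The proteoglycan decorin (Dcn) was alike in both groups at 1322 and 1375 CPM (-0.06), and fibronectin (Fn1) was lower in members at 1112 and 3310 CPM (-1.57). In the 174 alone Fn1 passed 4-fold, at 516 CPM (-2.68). Dpt, Pi16 and Cd34 stayed under 10 CPM. Bone markers gave no such picture: Bglap, Ibsp and Dmp1 had 0 counts in members, Sp7 was at 0.660 CPM, and Runx2, a factor of bone and cartilage, was at 224 and 109 CPM (1.05).

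Fibril and fibre genes were high in members as groups. Of the 10 fibrillar and associated collagens compared, 6 were at least 4-fold higher with a median of 2.96, and the lowest was Col16a1 with 0.71. The higher genes include the marker Col3a1 and Col1a2, the partner chain of the gene that chose the members, so this count is not separate evidence. Col5a2 and Col5a1, chains of the type V collagen that regulates fibril assembly, were at 1200 and 626 CPM in members against 23.6 and 47.7 CPM (5.67 and 3.71). Of the 12 elastic fibre and microfibril genes 8 were at least 4-fold higher and 0 lower, with a median of 3.996. Fibulin-5 (Fbln5), needed to assemble elastic fibres, was at 175 and 2.95 CPM (5.89), Ltbp2, a microfibril protein, at 192 and 5.46 CPM (5.14) and Mfap4, another microfibril protein, at 1210 and 38.4 CPM (4.98), while Fbn1 had the lowest ratio of the list at 0.86. In the 174 alone 10 of the 12 were higher, with a median of 4.304.

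The enzymes that process collagen were not higher as a group by their median. Of these, 4 of 22 were at least 4-fold higher, a share above the 6.29% of all genes compared, and the median was -0.08. The 4 were Adamts2, which trims procollagens (4.62), Lox, which cross-links them (4.29), the procollagen protease enhancer Pcolce (3.98) and the prolyl hydroxylase subunit P4ha3 (2.20). The common subunit P4hb was at 495 and 567 CPM (-0.20), and the collagen chaperone Serpinh1 at 993 and 1185 CPM (-0.25). Of 12 small leucine-rich proteoglycans 3 were higher, Kera, Aspn and osteoglycin (Ogn, 2.96), while osteomodulin (Omd) and epiphycan (Epyc) had the lowest ratios, -1.90 and -1.89. In the 174 alone the ratios of Omd and Epyc were -3.75 and -4.60. Of 11 matricellular proteins 4 were higher, Postn, Thbs4, Thbs2 (475 and 11.1 CPM, 5.42) and Tnc, yet the median was -0.55, and Comp, a cartilage and tendon protein, was lower in members at 1465 and 2973 CPM (-1.02).

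The insulin-like growth factor list, which holds the marker gene Igf1, had 5 of 9 genes at least 4-fold higher and a median of 5.57. The 5 were the ligand Igf1 and the binding proteins Igfbp3 (5.97), Igfbp4 (5.57), Igfbp5 and Igfbp6. The receptor Igf1r was at 290 and 213 CPM (0.44), and the second ligand Igf2 at 86.5 and 47.3 CPM (0.87). In Wnt and hedgehog signalling 5 of 9 genes were higher with a median of 2.26, led by the hedgehog inhibitor Hhip (21.8 and 0.398 CPM, 5.77) and the Wnt modulator Sfrp2 (132 and 3.52 CPM, 5.23), while Sfrp1 was lower (-1.46). In the 174 alone 6 of 9 were higher, and Sfrp1 passed 4-fold downward (-2.17). In TGF-beta and BMP signalling 1 of 14 was higher, the ligand Tgfb3 (111 and 24.2 CPM, 2.20), a share near the 6.29% of all genes compared, and the median was 0.44. In FGF and PDGF signalling 3 of 10 were higher, with Fgf7 at 10.6 and 0.730 CPM (3.86), and the cartilage receptor Fgfr3 had the lowest ratio (-1.58), which was -3.61 in the 174 alone.

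Of 15 mesenchymal transcription factors 11 were at least 4-fold higher, with a median of 3.06. Meox1 (37.0 and 0.324 CPM, 6.83) and Meox2 (112 and 2.76 CPM, 5.34), homeobox factors of the somites, led the list, followed by Ebf2 (5.33) and Twist1 (4.28). Prrx1, a limb and skeletal mesenchyme factor, was at 290 and 45.8 CPM (2.66), and Snai2 had the lowest ratio of the list (-0.64). Of the stromal genes of bone marrow, Cxcl12 was at 47.5 and 0.804 CPM (5.89) and Vcam1 at 17.2 and 0.450 CPM (5.25), while Lepr and Kitl were under 10 CPM and Ebf1 did not differ by 4-fold (-0.44). Of the smooth muscle and pericyte list 2 of 6 were higher, Rgs5 and Notch3, on few counts. Of the 22 Rgs5 counts in members 20 came from 1 cell, and the 18 Notch3 counts came from 3.72% of members. The contractile gene Acta2 was at 58.1 and 125 CPM (-1.10).

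Over all members, lists unrelated to lineage lay near or below the median of all genes. The 8 heat shock genes had a median of -0.0035 with 0 called, the 7 S phase genes 0.31 and the 6 G2M phase genes 0.28, each with 0 called. In the 174 alone these medians were -0.03, 0.65 and, over 7 G2M phase genes, 1.07, again with 0 called, beside 0.37 over all genes. The 12 immediate early genes, which digestion of tissue is known to induce, had a median of -0.92 with 1 at least 4-fold lower, Egr3 (-2.40). Over all genes compared 0.831% were at least 4-fold lower. Fos was at 2757 and 5407 CPM (-0.97) and Jun at 1917 and 1887 CPM (0.02). In the 174 alone 3 of the 12 were lower, beside 298 of 9045 over all genes compared, and the median was -1.45. The reporter ZsGreen was at 287 and 446 CPM (-0.64), and had UMIs in 65.6% of members and 92.6% of the other cells. Of all 29 lists with at least 1 gene compared, the marker genes aside, 19 had a median above 0.

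**Figure D3:**
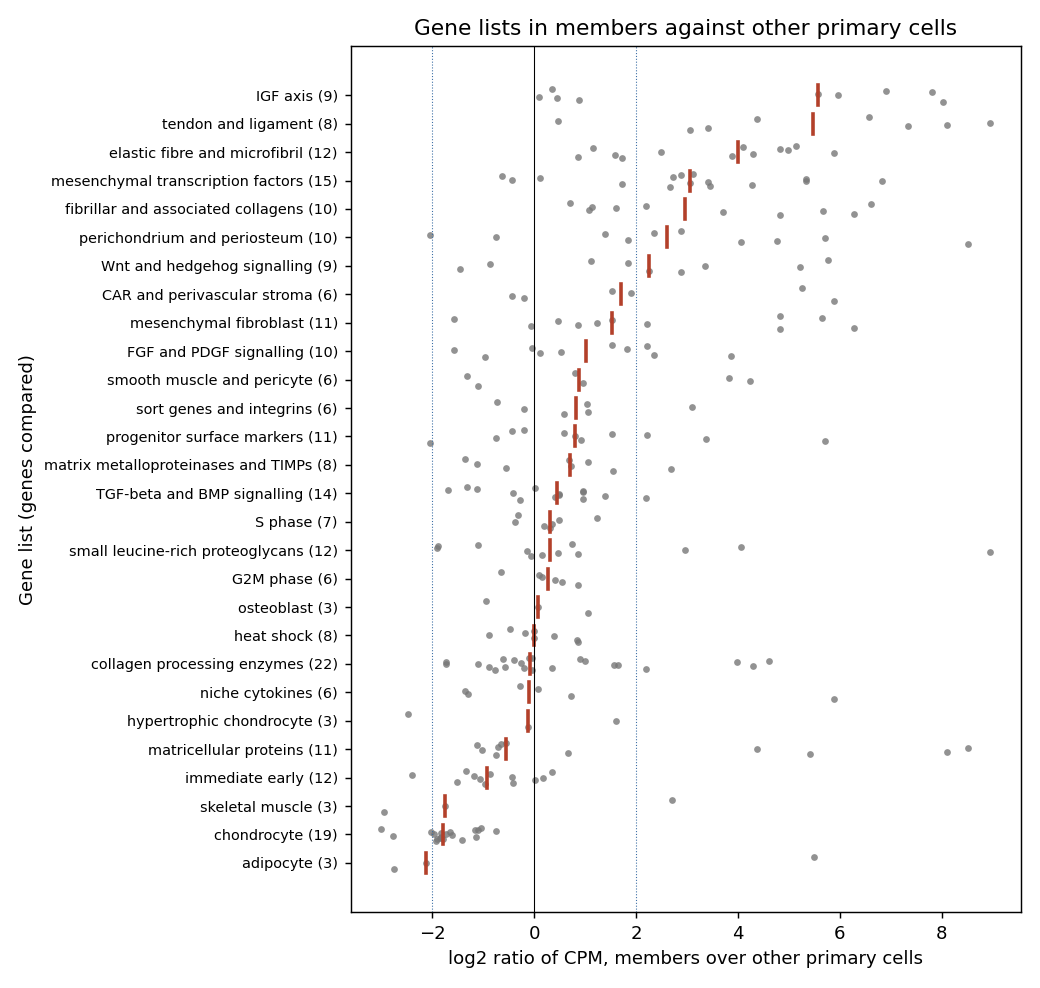
Log2 ratio of CPM, members over other primary cells (x axis), of each compared gene (points) in 28 lists of at least 3 compared genes (y axis, number of genes in parentheses), with the list median as a red bar and dotted lines at 4-fold. The insulin-like growth factor and tendon lists lie at the top with medians of 5.57 and 5.47, and the chondrocyte list is near the bottom with -1.80.

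The chondrocyte genes were lower in members, but 3 of 19 passed 4-fold over all members and 14 of 19 did in the 174 with low Col2a1, with medians of -1.80 and -3.61. Among all genes compared, 73 of 8787 were at least 4-fold lower in the first contrast and 298 of 9045 in the second. Col2a1 is in this list and made the split, and 11379 of the 11531 other cells lay above its limit. The values of the 174 and of the 41 thus follow in part from the split. Col2a1 itself was at 14039 CPM in all members, 2197 CPM in the 174 and 53707 CPM in the other cells. In the 41 members with high Col2a1 the median of the list was -0.58. Matn1, Clec3a and the secreted cartilage protein Ucma were the 3 lower genes over all members. Collagen Col9a1 was at 1210 CPM in all members and 234 CPM in the 174, against 4578 CPM in the other cells, and Sox9, the cartilage master factor, at 421, 153 and 1318 CPM.

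Cartilage transcripts in the 174 members were not in the proportions of the other primary cells. Col2a1 both split the members and is the denominator here, so the split itself raises every proportion in the 174. The differences between genes are therefore described, and the rise itself is no result. For every 100 Col2a1 counts the 174 had 10.6 of Col9a1, 4.91 of Snorc, 7.58 of Cnmd and 16.2 of Ucma, close to the 8.52, 3.99, 6.57 and 12.6 of the other cells. By the same measure they had 95.9 of the type XI collagen gene Col11a1 against 12.8, 12.4 of the transcription factor Sox5 against 1.14, and 8.87 of Sox6 against 1.38. The matrix protein Chad was at 21.5 against 2.87, the secreted Cytl1 at 12.3 against 1.30, and aggrecan (Acan) at 17.3 against 3.66. In the 41 members the proportions lay near those of the other cells, with 14.2 for Col11a1, 1.52 for Sox5 and 3.31 for Chad. The log2 differences in proportion were 0.21 to 0.35 for the first 4 genes and 2.24 to 3.44 for the latter 6, with the other 7 genes of the list that had counts at 0.41 to 1.57. In level Col11a1 was nonetheless lower in the 174 members, at 2107 CPM against 6887 CPM.

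The genes with the lowest ratios among those with at least 100 CPM were Clec3a, a cartilage lectin (14.5 and 117 CPM, -3.01), and Ppa1, a pyrophosphatase (83.9 and 475 CPM, -2.50). They were followed by the adhesion protein Ninj2 (-2.24), the glucose transporter Slc2a1 (71.3 and 324 CPM, -2.18), melanotransferrin (Meltf, -2.16), transferrin (Trf, -2.15), Lmcd1 (-2.09), Papss2, which makes the sulfate donor for proteoglycans (191 and 814 CPM, -2.09), Gramd2 (-2.06) and Ncmap (-2.05). Ucma (-2.03), the coagulation starter F3 (-2.01), the growth factor Hbegf (42.3 and 169 CPM), Olfm2 (-1.99) and the netrin receptor Unc5c (-1.99) closed the 15. In the 174 members alone the log2 ratio of Slc2a1 was -4.81, that of Papss2 -4.32 and that of Unc5c -3.37, whereas Ppa1 moved little, to -2.92.

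Ordered by Col1a1 level, the primary cells showed a graded change in summed counts and a step in the medians over cells. Col2a1 was at 53887 CPM in the cells with 0 Col1a1 UMIs, 54091 CPM in those under 300 CPM of Col1a1, 41152 CPM at 300 to 1000 CPM, 34428 CPM at 1000 to 3000 CPM, 20968 CPM at 3000 to 10000 CPM and 5258 CPM at 10000 CPM and above. Tnmd ran the other way over the same 6 bins, from 6.89 and 9.44 CPM through 110, 419 and 1075 CPM to 2395 CPM. The median cell, by contrast, had 0 CPM of Tnmd in all 4 bins under the threshold and 761 and 2215 CPM in the bins of members. For Col2a1 the medians were 51646, 51999, 27728 and 25208 CPM under the threshold and 3368 and 1554 CPM above it, so the summed 20968 CPM of the lower bin of members lay far above its median cell. Kera was concentrated at the top, at 21.3 CPM in the lower and 114 CPM in the upper bin of members, and Fmod stayed between 1791 and 2812 CPM in all bins. The 70 cells just under the threshold had the highest median doublet score of the bins, 0.203, and 25 of them were among the cells of highest score, against 0.0814 and 24 of 108 in the lower and 0.0379 and 4 of 107 in the upper bin of members. The part of mixed droplets in this gradient was not tested.

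**Figure D4:**
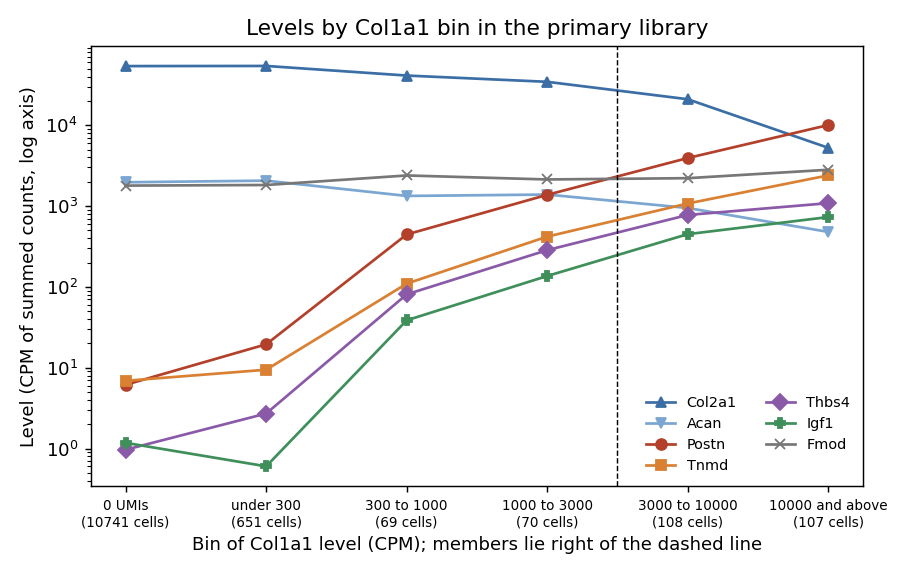
Level of 7 genes (y axis, CPM of summed counts, log scale) in 6 bins of primary cells by Col1a1 level (x axis, cells per bin in parentheses), members to the right of the dashed line. Col2a1 goes from 53887 to 5258 CPM while Tnmd goes from 6.89 to 2395 CPM.

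The members were not uniform among themselves. Clustered alone by the Leiden method they fell into 6 clusters of 58, 40, 40, 34, 28 and 15 cells, which are described by their values and carry no cell type name. Because the same counts made the clusters, their leading genes are descriptions. Postn and Col3a1 had UMIs in every cell of 5 clusters, and the exceptions were all in cluster 2. Tnmd lay between 328 and 4716 CPM over the clusters.

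Cluster 5 (28 cells, median 4506 UMIs) had the highest levels of some tendon genes and not of others. Tnmd was at 4716 CPM and Thbs4 at 3258 CPM, both with UMIs in 28 of 28 cells, and Scx was at 600 CPM and Aspn at 4579 CPM. Fmod, by contrast, was lowest of the clusters there at 1230 CPM, against 1994 to 4306 CPM elsewhere, Mkx was at 75.9 CPM within the 48.7 to 168 CPM of the clusters, and Kera was at 53.2 CPM. Col1a1 was at 7396 CPM, the second lowest of the clusters. Its leading genes were Adh1, an alcohol dehydrogenase (213 CPM, in 18 cells), Epb41l4a, Col22a1, a collagen of tissue junctions (456 CPM, in 15 cells), Chodl, a lectin-like membrane protein (866 CPM, in 22 cells), and Frem1. In the same cells Igfbp5 was at 15.2 CPM and Col14a1 at 205 CPM, the lowest of the 6 clusters, where the others had 357 to 892 CPM of Igfbp5 and 428 to 1871 CPM of Col14a1.

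Cluster 4 (34 cells) had the lowest levels of Tnmd, 328 CPM in 20 of 34 cells, of Scx, 46.2 CPM, and of Kera, 5.13 CPM from 1 count, although all 34 cells had Postn. Thbs4 was at 385 CPM there in 19 cells and at 319 CPM in cluster 2, while Mkx, at 118 CPM, and Fmod, at 2787 CPM, were above their levels in cluster 5. It was led by Rgs5, Gpha2, a glycoprotein hormone subunit (1381 CPM, in 18 cells), Zfp804b, Rapgef5 and Thy1 (82.1 CPM, in 9 cells). All 20 Rgs5 UMIs came from 1 cell, so Rgs5, a pericyte gene, does not describe the cluster. Cluster 1 (58 cells) had no gene 4-fold above the other members, with Hacd4, Otud6b, Cdh18, Atg4a and Cpxm2 in front, and Tnmd in 58 of 58 cells. Cluster 6 (15 cells, 57589 UMIs in all) had the highest levels of Col1a1, 25578 CPM, Postn, 13857 CPM, and Kera, 295 CPM, and its leading genes, Igfbp2, Mt4, Adat1, Traf1 and Hoxb7, rested on 3 to 6 counts each.

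Cluster 3 (40 cells) was led by Top2a, Clec3b, Diaph3, Mki67 and Cenpf. Of these Top2a, Mki67 and Cenpf are genes of dividing cells, and their counts came mostly from 2 members with 46 and 70 UMIs of the G2M phase list. These were the only members with at least 3 such UMIs, 0.930% of members, while 2.19% of the deeper other cells had as many. Clec3b (tetranectin) was found in 5 cells of the cluster, and Mfap5, an elastic microfibril protein, was at 161 CPM there against 3.61 to 35.9 CPM in the other clusters. Cluster 2 (40 cells) held 38 of the 41 members with high Col2a1, with Col2a1 at 33704 CPM, a median of 12912 UMIs and a median doublet score of 0.302. It was led by Olfm2, Gm13889, Slc8a3, A2m and Trf, of which Olfm2 and Trf were among the 15 lowest genes of all members, and the 41 Gm13889 counts came from 1 cell. With another resolution the members gave 9 clusters and with 20 components 5.

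**Figure D5:**
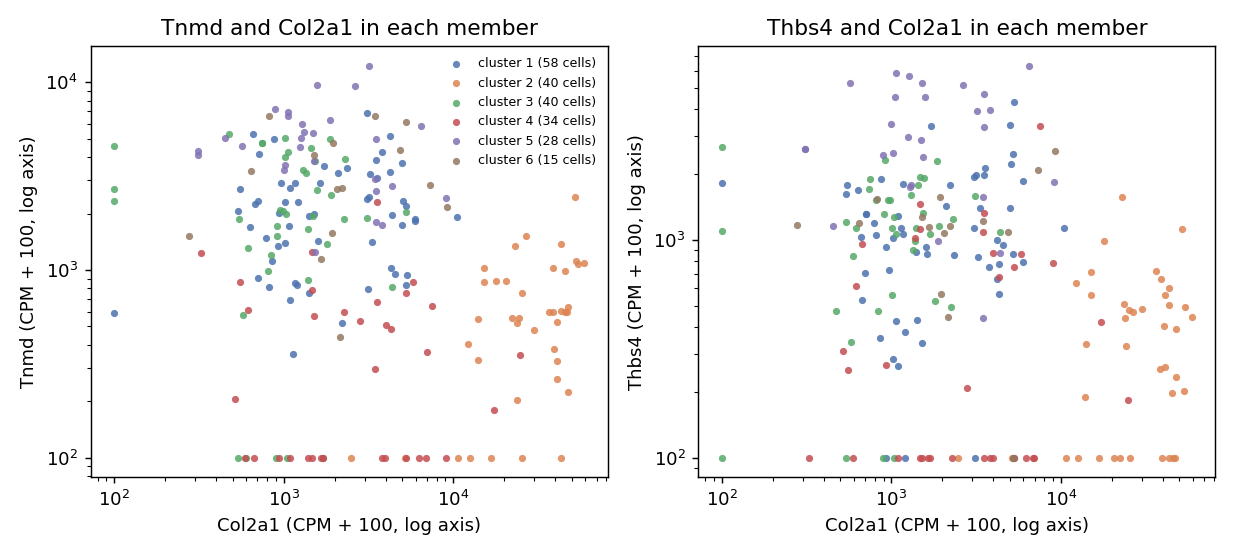
Tnmd (left) and Thbs4 (right) against Col2a1 in each of the 215 members (CPM plus 100, log scales), coloured by cluster. Cluster 5 lies highest for both genes, cluster 4 has many cells at 0, and cluster 2 lies to the right at high Col2a1.

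Over the 215 members the genes ranked most like Tnmd by Spearman correlation of CPM were Postn (0.66), Mfap4 (0.65), Thbs4 (0.62), Col3a1 (0.60), Aspn (0.56), C1qtnf3 (0.54), Lgals1 (0.51), Ogn (0.51), Abi3bp (0.50) and Egfl6 (0.49). Those most like Postn were Col3a1 (0.75), Col1a1 (0.69), Col1a2 (0.68), Mfap4 (0.68), Tnmd (0.66), Col5a2 (0.64), Lgals1 (0.59), Mfap2 (0.58), C1qtnf3 (0.57) and Ogn (0.56). The cells share 1 library, and their depth and cartilage content enter every pair, since Tnmd had a correlation of -0.28 and Col2a1 of 0.43 with the UMIs of the cell. Over the 174 members with low Col2a1 the value for Tnmd and Postn was 0.56 and for Tnmd and Thbs4 0.53. For Igf1 the values over all members were 0.34 with Postn, 0.32 with Col3a1, 0.22 with Thbs4, 0.19 with Tnmd and 0.14 with Col1a1. Over the 174 they were 0.19 with Postn, 0.18 with Col3a1, 0.07 with Thbs4 and 0.03 with Tnmd.

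Of the marker genes, Postn, Tnmd and Thbs4 were near 0 in the cultured library, and Col1a1, Col3a1 and Igf1 were not. Col1a1 was at 705 CPM over all cultured cells, with UMIs in 90.5% of these deeper cells. In the other primary cells it was at 19.7 CPM. Of 5338 cultured cells, 63 had Col1a1 at 3000 CPM or more, 1.18% (0.908% to 1.51%), and a median of 32017 UMIs. In these 63 cells Postn had 3 counts (1.31 CPM), Tnmd 1 count and Thbs4 0 counts, while Col3a1 was at 576 CPM and Igf1 at 188 CPM. Over all cultured cells Col3a1 was at 151 CPM, with UMIs in 71.96% of cells, and Igf1 at 46.6 CPM, in 40.9%, both above the levels of the other primary cells. Over all cultured cells Tnmd was at 0.200 CPM, Postn at 3.09 CPM and Thbs4 at 0.0121 CPM, and Kera had 0 counts, where 3 counts would be 0.00909 CPM. Other genes of the members were well represented there, such as Lgals1 at 2561 CPM, Fbln5 at 725 CPM, Tnc at 297 CPM and Scx at 73.8 CPM. The libraries also differed in RNA that marks their animals. ZsGreen had 0 counts in the cultured cells, and the Y chromosome genes Uty, Eif2s3y and Ddx3y were at 61.2, 55.3 and 102 CPM there, against 0, 0 and 1.98 CPM in members and 0.0811, 0.0590 and 4.15 CPM in the other primary cells. Loss of the members in culture, their change in culture and differences between the animals of the libraries cannot be told apart with 1 library each.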

How the data were processed

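Single-cell RNA sequencing (10x Genomics, 3′ chemistry) had been done on 1 primary and 1 cultured CDSC library. As deposited, the matrices hold unnormalised whole-number UMI counts of each gene in each barcode, which the authors made with Cell Ranger 7.0.0 against GRCm38. The submitters' processing notes also list mm10 and GRCm39, and the annotation release was not given in the sources used here. The primary library held 11896 and the cultured library 10798 barcodes, and 11746 and 5338 passed the filter (at least 500 genes, 1000 UMIs, at most 10% mitochondrial UMIs).

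Counts were summed over members (1514393 UMIs) and over the other primary cells (135634481 UMIs) and scaled to CPM. Counts under 3 were raised to 3 in log2 ratios, with exact conditional intervals for ratios and exact binomial (Clopper-Pearson) intervals for shares. Genes with at least 10 CPM in either group were compared, and called at 4-fold. There was no test, since cells of 1 library are not replicates. PCR duplicates were removed through UMIs, and intervals cover counting error only. The fold calculation was tested on simulated data.

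Scrublet (scanpy 1.11.5) marked 0 doublets by its automatic threshold and had thus not worked, so doublets were kept and the cells of highest score, at 0.8% per 1000 barcodes, were left out as an alternative only. Cells were thinned to 3000 UMIs for shares, which left out 20 members and 196 other cells. Members were clustered with leidenalg 0.10.2 (2000 variable genes, 10 components, 10 neighbours, resolution 0.5). Coordinates came from GENCODE M21. Named genes were the 6 markers, the highest, lowest and exceptional members of gene lists, the 20 highest and 15 lowest genes with at least 100 CPM (without mitochondrial, ribosomal protein genes and Col1a1), 5 leading genes per cluster with at least 50 CPM, and the 10 genes most correlated with Tnmd and Postn among those in at least 20% of members. Genes or values outside this rule, such as the proportions to Col2a1, Mfap5 in cluster 3 and ZsGreen, were chosen after they were seen. A gene of the lists is not reported here. Members, lists and alternatives were chosen with earlier results of these data known. The lists overlap in places, for instance in Postn, Thbs4, Kera and Tnc.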

Additional observations from a re-analysis of the deposited data

How the results depend on the processing

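Of 60 values under an alternative, 42 stayed within 1.5 times a count or within the interval of a share, and 18 did not. The number of members was 107 at 10000 CPM of Col1a1 and 130 with at least 5000 UMIs. The genes at least 4-fold higher numbered 248 with a minimum of 50 CPM, where 3921 genes were compared. The genes at least 4-fold lower, 73 in the main comparison, were the least settled, with 13 at a threshold of 1000 CPM, 273 at 10000 CPM, 256 without doublets by score, 298 without members of high Col2a1, 194 without members holding 3 UMIs of other classes, 196 as means over cells, 161 with TMM and 20 with a minimum of 50 CPM. The share of members with a Tnmd UMI was 69.3% at 1000 CPM, 93.9% at 10000 CPM and 87.9% without thinning. That with Postn was 94.3% at 1000 CPM and 100% at 10000 CPM, and that with Col2a1 was 98.5% with at least 5000 UMIs against 95.9%. In the cultured library 1223 cells reached 1000 CPM of Col1a1, against 63 at 3000 CPM. The causes of these shifts were not tested, beyond the smaller number of genes or cells that an alternative leaves. These 60 values are counts and shares, so they could not change sign. The median log2 ratio over the genes compared went from 0.28 to -0.10 with TMM. Lists with a median above 0 numbered 15 with TMM against 19 in the main comparison. No paired analysis was possible because each group has 1 library. With 1 library per group no leave-one-out was possible either, and the spread between animals of 1 group was not measured.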
